A study of Mus musculus with 444 samples.

Results

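The 6 transcription factors Trp63, Snai2, Id4, Sox10, Sox11 and Sox9, grouped as factors of the basal lineage, were followed through single cells of the mouse mammary epithelium. They were chosen by name and matched through their Entrez gene identifiers, and all 6 were found among the 25174 genes kept from the 27179 identifiers counted. The cells came from female FVB/NJ mice, an inbred laboratory strain without any transgene or treatment, either at puberty (221 cells; 4 weeks in the names of the tables, slightly older in the study's methods) or in the adult (223 cells; 10 weeks). The label gives total epithelium as the source, and the study's methods describe sorting of freshly dissociated glands, several mice per sort and several experiments, to remove blood and endothelial cells. Each cell was captured in its own chamber of the Fluidigm C1, a microfluidic device, and its polyadenylated RNA was amplified and sequenced as its own library without molecular identifiers. The labels name no animal, sort or capture run, so each stage stood as 1 sample, no test between stages or groups of cells was made, and every interval below is a 95% interval of counting error alone.

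The outer, basal layer of the mammary duct consists of contractile myoepithelial cells that hold keratin 14 and smooth muscle actin, and it encloses an inner luminal layer of hormone-sensing cells and of progenitors of milk-secreting cells. The transcription factor p63, encoded by Trp63, sustains the basal layers of many epithelia and governs keratin and adhesion genes. SLUG, encoded by Snai2, is a repressor of epithelial adhesion genes. Id4 belongs to the inhibitors of DNA binding, which lack a DNA-binding region of their own and tie up E proteins, whereas Sox9, Sox10 and Sox11 bind DNA through the HMG box that defines the Sox family, Sox9 and Sox10 being close relatives and Sox11 a member of another branch.

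A pubertal cell held between 2 and 1456360 read pairs on genes (median 313645) and an adult cell between 1 and 1167991 (median 304834). Cells with at least 100000 read pairs and 1500 genes were retained, 171 in puberty (77.4%) and 152 in the adult (68.2%), and no 2 of them held the same counts. Each was thinned at random to 100000 read pairs, so that 1 read pair equals 10 CPM, the count scaled to depth, in a cell, and a factor was called detected at 1 read pair or more. A cell was placed in the basal gate if Krt14 (keratin 14) or Acta2 (smooth muscle actin) reached 100 CPM in its counts before thinning. This held for 79 of the pubertal cells (46.2%, exact interval 38.6 to 54.0%) and 110 of the adult cells (72.4%, 64.5 to 79.3%), and 28 cells lay within 2-fold of the gate. All 79 and all 110 gated cells had at least 3 of the 12 basal markers listed, with a median of 9 in puberty and 11 in the adult, 2 of the 12 being the gate genes themselves. Outside the gate, 15 of 92 pubertal cells (median 0) and 32 of 42 adult cells (median 5.5) also had at least 3. Among adult cells numbered 48 to 188, a set described below, this held for 16 of 17 outside the gate (median 6). At the same 100 CPM, the luminal keratins Krt8 or Krt18 were found in 61 of the gated pubertal and 100 of the gated adult cells. At least 3 of 8 hormone-sensing luminal markers were found in 50 gated pubertal and 43 gated adult cells. Outside the gate these numbers were 74 and 31. Doublets were not called, since the study's methods describe inspection of the captured cells.

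The adult cells did not form a uniform set. Every one of the 107 retained adult cells numbered 48 to 188 in the labels had reads of the small nuclear RNA Rn7sk, against 8 of the 45 others, and 84.1% of the former but 44.4% of the latter were in the gate. Adult values are therefore given within each set for many results, though not for all. A value given over all adult cells alone can differ between the sets. The share of gated cells in the adult depends on the mix of both sets.

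The positions of the genes, on mm10 (GRCm38.p6), were as follows. Trp63 (identifier 22061) lies on chromosome 16 from 25683763 to 25892088 and Snai2 (20583) on the same chromosome from 14705852 to 14709395. Id4 (15904) lies on chromosome 13 from 48261116 to 48266028, where the noncoding A330033J07Rik overlaps it and was also counted, so that the reads of Id4 are uncertain. Sox10 (20665) lies on chromosome 15 from 79154913 to 79164490, Sox11 (20666) on chromosome 12 from 27334268 to 27342718 and Sox9 (20682) on chromosome 11 from 112782210 to 112787757. Counts are summed over each gene, so the long and short forms of p63 were not separated.

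Sox9 and Sox10 were followed in the same cells with different patterns, so the stretch in which their transcripts are most alike is shown to make clear how far their reads can be told apart. The longest identical run of the 2 transcripts was 44 bases, inside the coding sequence. The lines below give 60 coding bases around it (GENCODE, GRCm38), Sox9 from exon 1 at chr11:112782823-112782882 on the plus strand and Sox10 from exon 2 at chr15:79163422-79163481 on the minus strand, with bases shared by both in capitals.
Sox9: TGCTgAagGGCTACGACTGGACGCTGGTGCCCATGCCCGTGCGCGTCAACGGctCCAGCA
Sox10: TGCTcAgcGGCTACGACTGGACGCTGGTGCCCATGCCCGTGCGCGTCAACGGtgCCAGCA
The stretches differed at 5 of the 60 bases. The longest run that Sox9 shared with Sox11 was 24 bases and that of Sox10 with Sox11 was 26 bases, while Sox11 shared 48 bases with its paralog Sox4.

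Promoters were available from RefSeq for 2 of the 6 factors, Id4 and Sox11, and both were detected mostly in gated cells below. They are shown with E-boxes, the letters CANNTG that E proteins and their partners bind, in capitals. The motif reads the same on both strands. Each line is the 250 bases before the transcription start on GRCm38.p6, Id4 from chr13:48260866-48261115 on the plus strand and Sox11 from chr12:27342719-27342968 on the minus strand.
Id4: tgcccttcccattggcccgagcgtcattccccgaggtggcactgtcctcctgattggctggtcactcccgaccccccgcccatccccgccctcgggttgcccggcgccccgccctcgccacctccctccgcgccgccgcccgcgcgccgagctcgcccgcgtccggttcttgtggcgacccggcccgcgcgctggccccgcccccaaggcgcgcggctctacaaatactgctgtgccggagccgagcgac
Sox11: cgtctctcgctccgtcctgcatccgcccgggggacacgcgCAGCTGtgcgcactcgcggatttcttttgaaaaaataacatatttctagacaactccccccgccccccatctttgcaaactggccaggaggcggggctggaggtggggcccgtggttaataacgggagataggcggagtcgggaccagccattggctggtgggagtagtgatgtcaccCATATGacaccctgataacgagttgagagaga
The Sox11 window held 2 E-boxes, CAGCTG starting 210 bases and CATATG starting 32 bases before the transcription start, and the Id4 window held none. Among 32851 promoters of the same length, 66.2% held at least 1 E-box and 31.8% at least 2. CACCTG or its reverse complement CAGGTG, the E-box form that Snail factors bind, was in neither window and in 17.2% of all promoters. Such matches describe the letters of the window alone.

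To ask whether the factors marked basal cells, their summed thinned counts in gated cells were set against those in the remaining cells of the same stage. Trp63, Snai2, Id4 and Sox11 were far higher in the gate at both stages, and Sox10 and Sox9 were not, so the name basal lineage factor held for 4 of the 6 genes by level. In puberty, 4 of 6 factors had a log2 ratio of gate over rest of 1 or more, against 25.6% of the 11138 genes compared, those that reached 5 CPM in either group, and 1 of 6 was at -1 or less, against 23.1%. In the adult, again 4 of 6 were at 1 or more, against 33.4% of 10649 genes, and 1 of 6 at -1 or less, against 27.1%. The same 4 were at 1 or more in cells 48 to 188, against 46.0% of the genes compared, and in the other adult cells, against 33.1%. The factor at -1 or less was Sox9, which was not there in cells 48 to 188, where 0 of 6 were and 22.4% of all genes, and was in the other adult cells, against 39.4%. The median log2 ratio of the factors was 5.11 in puberty and, with Sox11 at its lower bound, 5.44 in the adult, beside 0.03 and 0.13 over all genes compared.

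**Figure D1:**
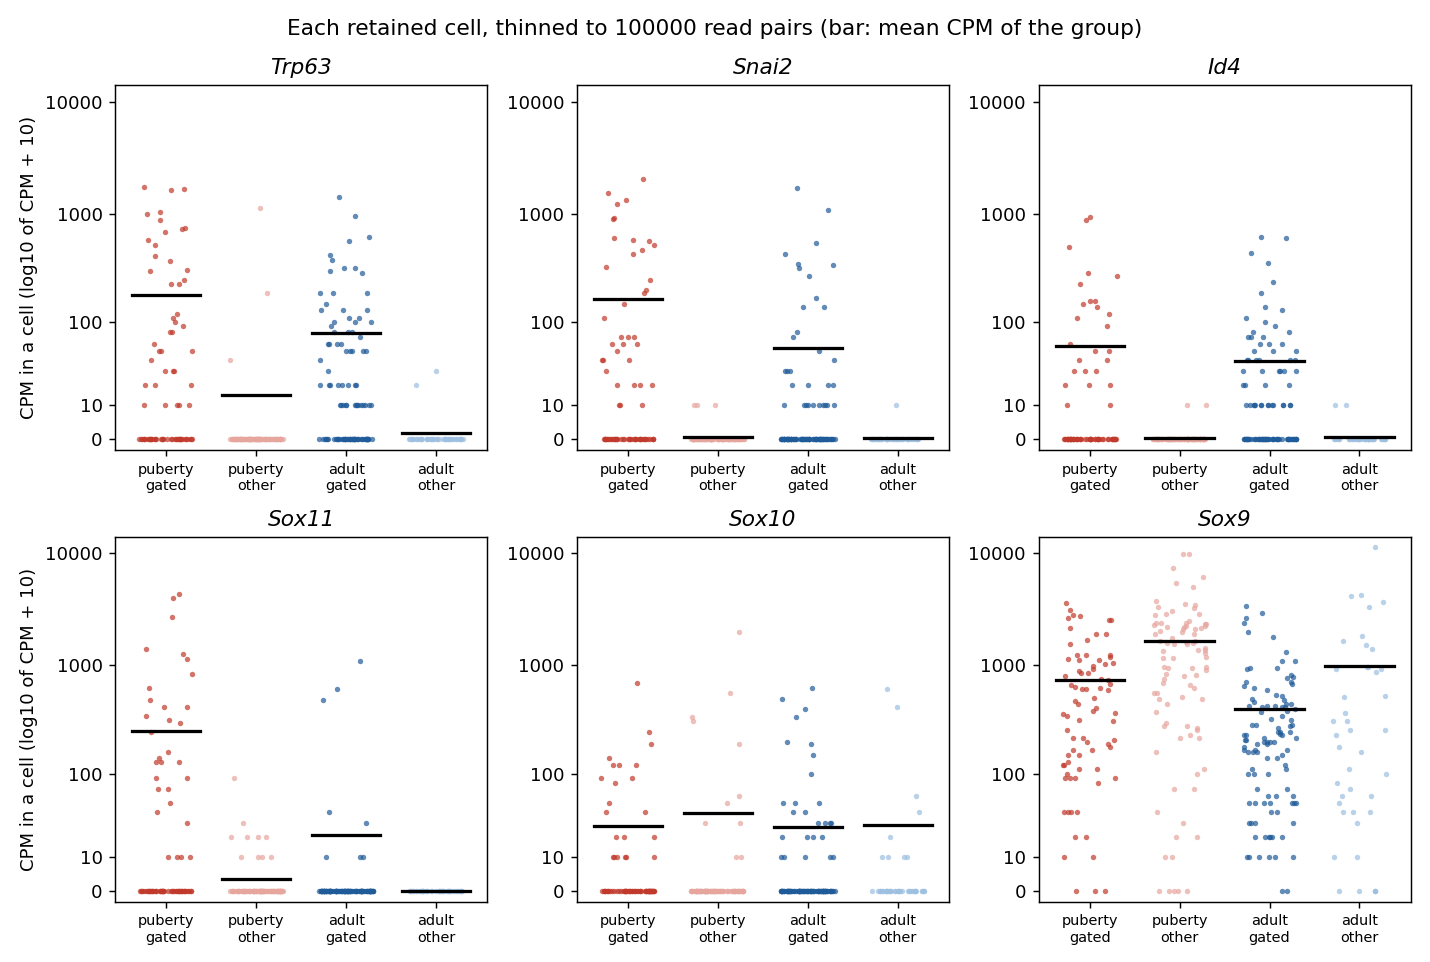
CPM of each factor in every retained cell (vertical axis, log10 of CPM + 10, so that 0 can be drawn; each point is 1 cell) for gated and other cells of each stage, with a bar at the mean CPM. Trp63, Snai2 and Id4 points above 0 sit almost entirely in the gated groups, Sox11 points outside the gate are those of 10 pubertal cells, none above 90 CPM, while Sox10 points lie in all 4 groups and Sox9 was above 0 in 88.1% or more of each group.

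Trp63 ran from 0 to 1720 CPM over the 79 gated pubertal cells, with a median of 10.0 CPM and a mean of 181 CPM. Over the 92 pubertal cells outside the gate its mean was 14.8 CPM and it was detected in 3 cells, at 40, 190 and 1130 CPM. Since only 40 of the 79 gated cells had a read pair of Trp63, the groups overlapped at 0 CPM, and also through those 3 cells. The highest of the 3 held 83.1% of the reads outside the gate. The log2 ratio of gate over rest was 3.61 (3.36 to 3.88), and 5.99 without the highest cell of each group. The cell at 1130 CPM had no Krt14 read pair and 6.95 CPM of Acta2, with 5 of 8 luminal progenitor markers and Sox10 at 340 CPM. In the adult, Trp63 ran from 0 to 1410 CPM in gated cells with a mean of 77.0 CPM, and outside the gate it was detected in 2 of 42 cells, at 20 and 30 CPM. The adult log2 ratio was 6.02 (4.79 to 7.64), with 5.22 (3.67 to 7.50) in cells 48 to 188 and 7.31 (5.44 to 10.4) in the other adult cells.

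Snai2 had the highest log2 ratio of gate over rest in puberty, with an interval that overlapped that of Id4. By detection outside the gate Id4 was lower, at 2.17% of pubertal cells against 3.26% for Snai2, and at 2.17% against 9.78% without thinning. Snai2 ran from 0 to 2040 CPM in gated pubertal cells (median 0, mean 165 CPM), and its 3 detections outside the gate were at 10.0 CPM each, a single read pair. The log2 ratio was 8.98 in puberty (7.43 to 11.3) and 7.84 in the adult (5.36 to 13.1), where gated cells ran from 0 to 1710 CPM with a mean of 54.5 CPM and 1 outside cell held 1 read pair. Within the adult sets the gated mean was 62.4 CPM in cells 48 to 188, with no read pair in the 17 cells outside the gate (at least 35.4-fold higher, on 3 read pairs as the floor of the outside group), and 19.0 CPM against 0.40 CPM in the other adult cells, where 1 gated cell at 350 CPM held 92.1% of the reads.

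Id4 had lower levels with the same contrast. It ran from 0 to 940 CPM in gated pubertal cells (mean 56.3 CPM) and from 0 to 620 CPM in gated adult cells (mean 39.7 CPM), and outside the gate 2 cells of each stage held 1 read pair each. The log2 ratio was 8.02 (6.16 to 11.1) for pubertal and 6.38 (4.52 to 9.43) for adult cells. In cells 48 to 188 the ratio was 4.87 (3.01 to 7.92), and the other adult cells, at 63.5 CPM in the gate and without a read pair outside it, were at least 52.9-fold higher in the gate. Of the reads in these other adult cells, 1 gated cell at 620 CPM held 48.8%. The log2 bound was 5.73, and 4.77 without the highest cell of each group.

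Sox11, known from progenitor states of the nervous system and other embryonic tissues, was largely a gene of gated pubertal cells. Its 31 detections among the 79 cells reached 4360 CPM, with a median of 160 CPM in detecting cells and a mean of 254 CPM over all of them. Outside the gate it was seen in 10 of 92 pubertal cells, none above 90 CPM. The log2 ratio was 6.60 (6.03 to 7.25). Of 110 gated adult cells 8 had any read pair, at 1100, 610, 490, 40, 30 and, in 3 cells, 10 CPM, and none of the 42 adult cells outside the gate had one, which on the limit of 3 counts allows a share of up to 7.14% and by the exact interval up to 8.41%. The adult gate was at least 29.3-fold higher than the rest, on the floor of 3 read pairs over the outside group. The bound was 7.49-fold in cells 48 to 188, where 1 cell at 1100 CPM held 92.4% of the reads and no bound above 1 could be set without it, and 46.2-fold in the other adult cells.

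Sox10, which directs neural crest and Schwann cells and is also known from mammary progenitors, did not separate the groups by level. Gated pubertal cells ran from 0 to 700 CPM with a mean of 27.2 CPM, the pubertal cells outside from 0 to 1990 CPM with a mean of 38.9 CPM, gated adult cells from 0 to 620 CPM with a mean of 27.1 CPM and the adult cells outside from 0 to 610 CPM with a mean of 28.3 CPM. The groups overlapped over their whole range. The log2 ratio of gate over rest was -0.52 (-0.77 to -0.27) for pubertal and -0.06 (-0.38 to 0.25) for adult cells, where it was -0.51 (-0.91 to -0.11) in cells 48 to 188 and 0.17 (-0.43 to 0.78) in the other adult cells. In cells 48 to 188 it was 2.29 without the highest cell of each group. A single pubertal cell decided the first value. This cell, with 1990 CPM of Sox10, held 55.6% of the reads outside the gate and also 18610 CPM of Mbp and 96940 CPM of Pmp22, genes known from Schwann cells, with 3 of 8 fibroblast markers and no basal marker. Without it the pubertal log2 ratio was 0.64 (0.34 to 0.94). Among the remaining 10 pubertal cells with Sox10 outside the gate, Mbp did not exceed 520 CPM and Pmp22 440 CPM, and in the 9 adult cells they did not exceed 280 and 20 CPM.

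Sox9, expressed in luminal progenitors and in many ducts and glands, was the most widespread of the 6. It was detected in 96.2% of gated and 94.6% of other cells in puberty and in 98.2% and 88.1% in the adult. Its median was 410 CPM in gated and 1250 CPM in other pubertal cells, and 210 CPM and 245 CPM in the adult, with single cells up to 9860 CPM and 11440 CPM outside the gate. The mean was lower in the gate, with a log2 ratio of -1.16 (-1.21 to -1.12) for pubertal and -1.30 (-1.36 to -1.24) for adult cells. The adult value differed between the sets, at -0.22 (-0.33 to -0.10) in cells 48 to 188 and -1.49 (-1.59 to -1.39) in the other adult cells. With the highest cell of each group left out it was -0.97 (-1.04 to -0.91) over all adult cells.

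**Figure D2:**
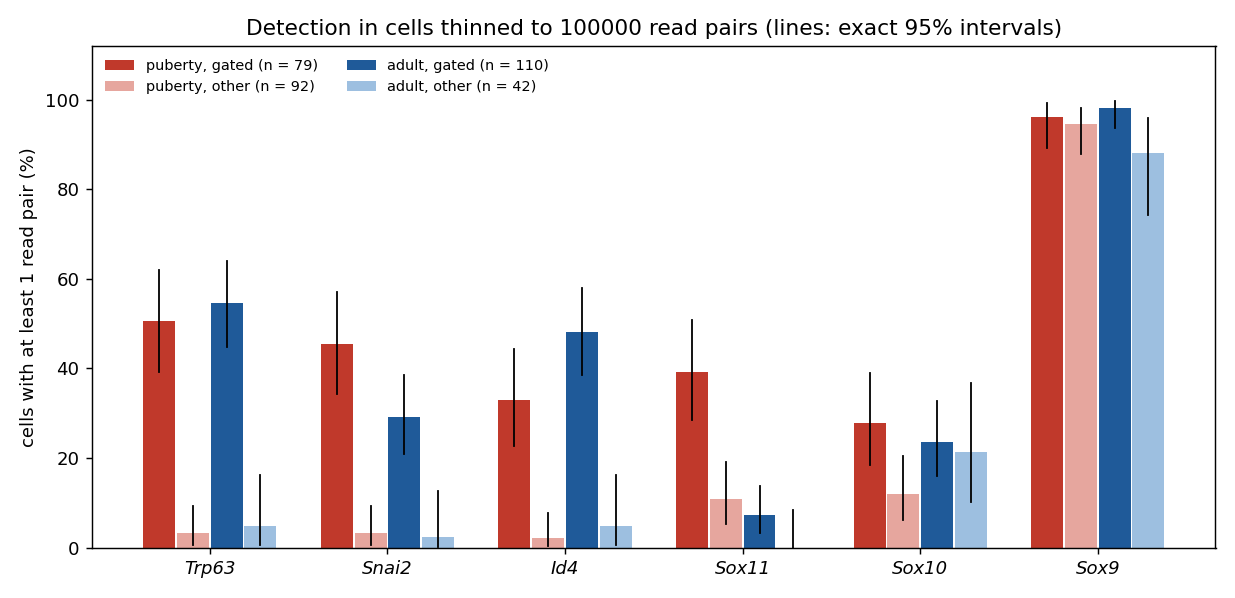
Share of cells (vertical axis, percent) with at least 1 read pair of each factor after thinning, for gated and other cells of each stage, with exact 95% binomial intervals as lines. Trp63, Snai2 and Id4 were found in 29.1 to 54.5% of gated cells and in at most 4.76% of the others, and Sox11 in 39.2% of gated pubertal but 7.27% of gated adult cells.

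By share of detecting cells, all 6 factors were higher in gated than in other cells at both stages after thinning, with exceptions in Sox10 within cells 48 to 188, at 21.1% in and 23.5% outside the gate, and in Sox9 without thinning, at 98.7% in and 98.9% outside the gate of puberty and at 100% in both groups of cells 48 to 188. The thinned pubertal intervals of Sox9 overlapped, at 89.3 to 99.2% and 87.8 to 98.2%. With 5 read pairs required, the order turned for Sox9 in puberty, at 86.1% in and 88.0% outside the gate. It also turned for Sox10 in the other adult cells, at 5.00% and 8.00%. Trp63 was detected in 50.6% of gated against 3.26% of other pubertal cells and in 54.5% against 4.76% of adult cells. For Snai2 the shares were 45.6% against 3.26% and 29.1% against 2.38%, and for Id4 32.9% against 2.17% and 48.2% against 4.76%. Sox10 was found in 27.8% (18.3 to 39.1%) against 12.0% (6.12 to 20.4%) in puberty, but in 23.6% against 21.4% in the adult, with wide overlap of the intervals. The pubertal level of Sox10 had the opposite order to its share with the cell at 1990 CPM and the same order without it. Without thinning, the adult cells 48 to 188 outside the gate held Trp63, Snai2 or Id4 in 58.8% of 17 cells, against 8.00% of the 25 other adult cells outside the gate and 15.2% of the pubertal ones. After thinning these shares were 17.6%, 8.00% and 7.61%, so in the first set the low counts of these basal factors appeared mainly at full depth.

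A level between genes can be compared only per length, here as mean CPM per kilobase of counted transcript. In gated pubertal cells Sox9 was highest at 178, followed by Snai2 at 81.8, Id4 at 33.9 (30.9 to 37.2), Sox11 at 30.0 (28.7 to 31.3), Trp63 at 29.9 (28.3 to 31.5) and Sox10 at 10.0 (8.74 to 11.5). The neighbours Id4, Sox11 and Trp63 did not differ beyond their counting intervals. In gated adult cells the order was Sox9 at 97.5, Snai2 at 27.1 (25.0 to 29.3), Id4 at 23.9 (21.7 to 26.3), Trp63 at 12.7, Sox10 at 9.99 and Sox11 at 2.47, and Snai2 and Id4 overlapped. The adult order depended on the set. It was Sox9 at 93.1, Snai2 at 31.0, Id4 at 20.7, Trp63 at 10.9 (10.0 to 11.8), Sox10 at 10.3 (9.09 to 11.7) and Sox11 at 1.56 in cells 48 to 188, and Sox9 at 117, Id4 at 38.3, Trp63 at 21.0, Snai2 at 9.43 (6.68 to 12.9), Sox10 at 8.48 (6.21 to 11.3) and Sox11 at 6.57 (5.40 to 7.91) in the other adult cells, where the last 3 overlapped from neighbour to neighbour. Outside the gate Sox9 reached 399 in puberty and 240 in the adult, Sox10 14.3 and 10.4, and the others 2.44 or less.

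To ask how the factors differ between puberty and adulthood, the stages were compared first over all retained cells. Of the 6 factors 2, Sox11 and Sox9, had a log2 ratio of puberty over adult of 1 or more, against 24.7% of the 11321 genes compared, and 5 were above 0, against 54.4%. This comparison mixes the level in gated cells with their share, which was 46.2% in puberty, 84.1% in adult cells 48 to 188 and 44.4% in the other adult cells. Against each adult set 2 of 6 were again at 1 or more, Sox11 and Sox9 for cells 48 to 188 (31.5% of all genes) and Sox11 and Snai2 for the others (35.7%). Sox11 averaged 119 CPM over pubertal and 15.1 CPM over adult cells (log2 ratio 2.97, 2.77 to 3.17), and Sox9 1231 and 567 CPM (1.12, 1.08 to 1.15). The Sox9 ratio was 1.64 against adult cells 48 to 188 but 0.34 against the other adult cells. Trp63 stood at 0.71 (0.59 to 0.83), Snai2 at 0.95 (0.81 to 1.09; 0.54 and 3.14 against cells 48 to 188 and the others), Sox10 at 0.29 (0.10 to 0.47) and Id4 at -0.14 (-0.34 to 0.05). Without the pubertal cell at 1990 CPM, Sox10 stood at -0.32 (-0.52 to -0.11).

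Within the basal gate, 3 of 6 factors had a log2 ratio of puberty over adult of 1 or more, against 29.4% of 11031 genes, and all 6 were above 0, against 54.7%. Sox10 stood only 0.01 above 0, and below it with TMM scaling, which lowers each ratio in the gate by 0.17. Against cells 48 to 188 and against the other adult cells alone, 5 of 6 were above 0, against 56.5% and 64.1% of all genes. The median of the factors was 1.05, beside 0.16 over all genes compared. Against cells 48 to 188 it was 1.17 beside 0.23, with 3 of 6 at 1 or more (32.2% of all genes), but against the other adult cells it was 0.56 beside 0.81, with 2 of 6 at 1 or more (47.1%). Sox11 differed most, with a mean of 254 CPM in pubertal against 20.9 CPM in adult gated cells (log2 ratio 3.60, 3.40 to 3.80). It was 4.26 against cells 48 to 188, where 1 of 90 gated cells held 92.4% of the reads, and 2.19 against the 20 other gated adult cells. Detection went the same way, at 39.2% (28.4 to 50.9%) of pubertal and 7.27% (3.19 to 13.8%) of adult gated cells. The adult share was 5.56% in cells 48 to 188 and 15.0% in the other gated adult cells. Snai2 stood at 1.59 (1.45 to 1.74), with 1.40 and 3.12 against the adult sets, and was detected in 45.6% (34.3 to 57.2%) and 29.1% (20.8 to 38.5%) of gated cells. Within the adult sets its share was 32.2% in cells 48 to 188 and 15.0% in the others.

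Trp63 and Id4 showed another pattern, in which level and share did not go together. The log2 ratio of Trp63 was 1.23 (1.11 to 1.36), with 1.46 against cells 48 to 188 and 0.51 against the other adult cells, where 1 cell at 1410 CPM held 55.5% of the reads and the ratio came to 1.44 with each group's highest cell left out, yet the share of detecting cells was 50.6% in puberty and 54.5% in the adult. Among detecting cells the median of Trp63 was 105 CPM (puberty) against 60.0 CPM (adult). Id4 stood at 0.50 (0.31 to 0.70) while its share was 32.9% in puberty and 48.2% in the adult, with medians among detecting cells of 75.0 and 40.0 CPM. Its ratio was 0.71 against cells 48 to 188 and -0.17 (-0.46 to 0.12) against the other adult cells, where 1 cell at 620 CPM held 48.8% of the reads and the ratio was 0.40 (0.01 to 0.80) with each group's highest cell left out. No order of the stages is read for Id4 from these values. Sox9 stood at 0.87 (0.81 to 0.93) and Sox10 at 0.01 (-0.25 to 0.26).

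**Figure D3:**
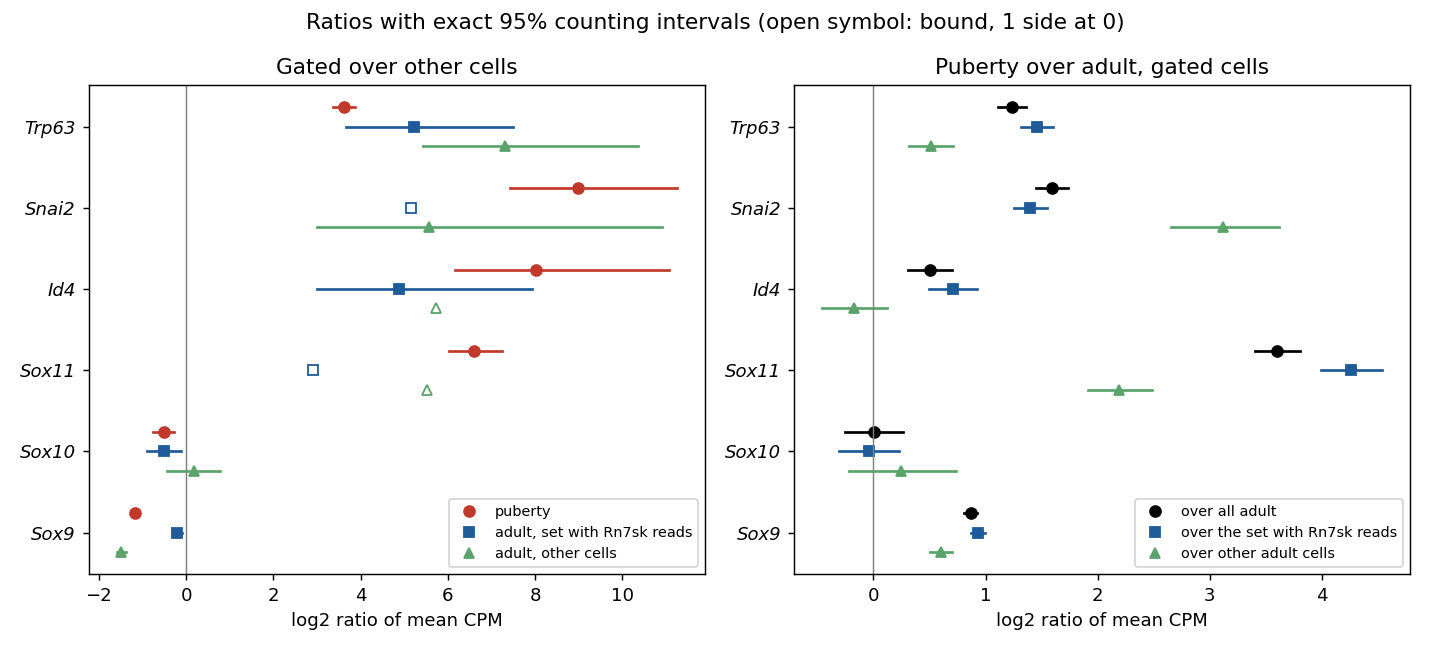
Log2 ratios of mean CPM with exact 95% counting intervals, gated over other cells (left) by stage and adult set (the set with Rn7sk reads is cells 48 to 188), and puberty over adult among gated cells (right) against all adult cells and each adult set. Open symbols are bounds, where a group had no read pair. Trp63, Snai2, Id4 and Sox11 lie right of 0 on the left panel in each set, and on the right panel Sox11 lies at 2.19 or more in each set whereas Id4 and Sox10 reach or cross 0.

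Other features moved with the stage among gated cells, and their part in the ratios was not tested. Of 12 basal markers, 1 was at a log2 ratio of 1 or more and 6 at -1 or less, against 20.4% of all genes at -1 or less. Krt14 averaged 755 and 2613 CPM, pubertal first, and Acta2 5267 and 7542 CPM, and the summed basal markers had a median of 7490 CPM (470 to 52110) and 17955 CPM (290 to 99260) per cell. Of 15 cell cycle genes 10 were at 1 or more, against 29.4% of all genes, and none at -1 or less, with summed levels of 0 to 7870 CPM (median 360) in puberty and 0 to 4010 CPM (median 195) in the adult. Of 8 fibroblast markers 6 were at 1 or more, against the same 29.4%, and 1 at -1 or less, none being at 0 in either group, and their sum ranged from 0 to 20640 CPM and from 0 to 28660 CPM with a median of 20 CPM in both. Without the cells that had 3 or more fibroblast markers, the ratios in the gate were 1.20 for Trp63, 1.57 for Snai2, 0.51 for Id4, 3.86 for Sox11, 0.97 for Sox9 and -0.0048 for Sox10.

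The gate joined cells of unlike marker content, and the factors varied within it. In puberty 52 gated cells passed for both Krt14 and Acta2, 26 for Acta2 alone and 1 for Krt14 alone. Sox11 averaged 361 CPM in the first group and 49.2 CPM in the second, and Id4 71.5 and 28.1 CPM. Snai2 averaged 171 and 159 CPM and Trp63 159 and 231 CPM, so of these 4 only Trp63 had a higher mean with Acta2 alone. Its share of detecting cells was 51.9% and 50.0%. In the adult 98 cells passed for both genes and 11 for Acta2 alone, where Snai2 averaged 60.9 and 2.73 CPM, Id4 44.5 and 0.91 CPM and Trp63 80.0 and 57.3 CPM. Trp63 with Acta2 alone came to 1.11 CPM in the 9 such cells of the set 48 to 188 and 310 CPM in the other 2. Splitting the gated pubertal cells by the luminal keratins instead, the 18 cells with neither Krt8 nor Krt18 at 100 CPM averaged 405 CPM of Trp63, 356 CPM of Snai2 and 754 CPM of Sox11, against 115, 108 and 106 CPM in the 61 cells with one of them. Sox9 went the other way, at 448 and 824 CPM. In the adult the same split had no single order for Trp63, at 165 CPM in the 10 cells without luminal keratin against 68.2 CPM in the other 100, since the order was 7.50 against 68.6 CPM in cells 48 to 188 and 270 against 65.7 CPM in the other adult cells. The adult groups without luminal keratin held only 4 cells in cells 48 to 188 and 6 in the others. In the former Trp63 was detected in 75.0% against 53.5%, opposite to its level. Id4 averaged 2.50 against 35.9 CPM in cells 48 to 188 and 20.0 against 82.1 CPM in the others. The lower values rest on 1 and 12 read pairs, so no adult order is read for Id4. In puberty the Id4 mean was 75.6 CPM without and 50.7 CPM with luminal keratin, while its share was 27.8% and 34.4%.

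The factors were seldom all found in 1 cell. At least 1 of Trp63, Snai2 and Id4 was detected in 79.7% (69.2 to 88.0%) of gated pubertal and 80.0% (71.3 to 87.0%) of gated adult cells, against 7.61% and 11.9% of the cells outside the gate. All 3 together were detected in 7.59% and 11.8% of gated cells. Of the 6 factors, 3 or more were found in 59.5% of gated pubertal cells (47.9 to 70.4%), in 48.2% of gated adult cells (38.6 to 57.9%), in 5.43% of the pubertal cells outside the gate and in none of the 42 adult ones. At full depth the gated shares were 75.9% and 67.3%, and those outside the gate 10.9% in puberty and 16.7% in the adult. The latter were 7 of 42 cells, at 35.3% of the 17 in cells 48 to 188 and 4.00% of the 25 others. Detection in a thinned cell thus understates how often the factors occur together, in and outside the gate.

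**Figure D4:**
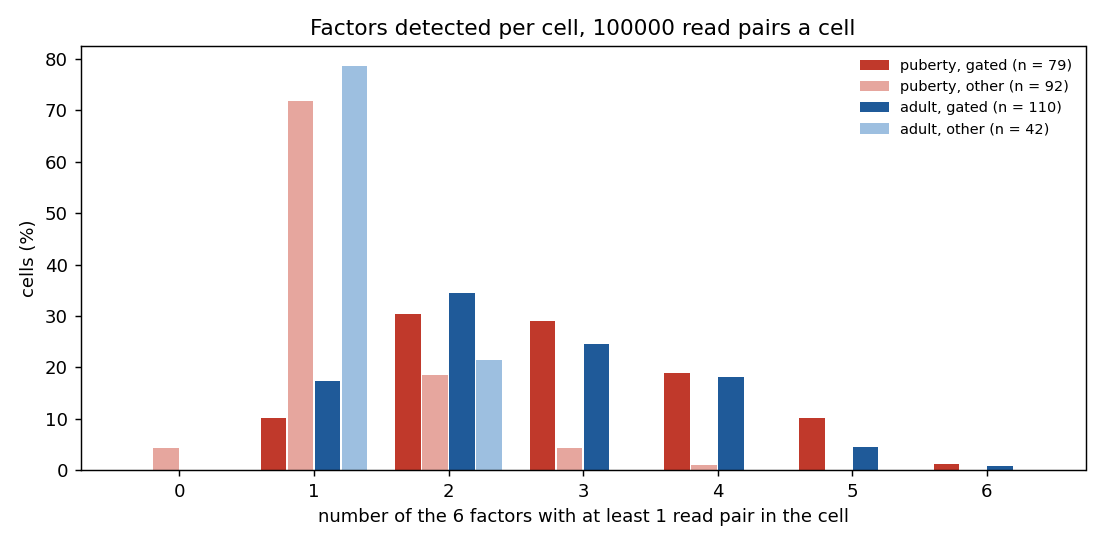
Share of cells (vertical axis, percent) by the number of the 6 factors detected after thinning (horizontal axis), for gated and other cells of each stage. Cells outside the gate mostly had 1 factor, whereas gated cells had a median of 3 in puberty and 2 in the adult.

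Trp63, Snai2 and Id4 were spread over gated pubertal cells about as their separate shares would give. Trp63 and Snai2 were together in 25.3% of these cells, beside 23.1% for the product of their shares, Trp63 and Id4 in 17.7% beside 16.7%, and Snai2 and Id4 in 13.9% beside 15.0%. Snai2 and Sox11 met more often, in 24.1% beside 17.9%, where 19 of the 36 cells with Snai2 (52.8%) and 27.9% of the other cells had Sox11. Before thinning, gated pubertal cells with Snai2 held a median of 619624.5 read pairs, against 265776 in those without it. For Id4 these medians were 295574 and 512118, and the part of depth in the shared detection was not tested. In gated adult cells Snai2 and Id4 were together in 20.0% beside 14.0%, with Id4 in 68.8% of the cells with Snai2 and 39.7% of the others. These shares were 69.0% and 41.0% within cells 48 to 188, and the other adult cells had only 3 gated cells with Snai2. Trp63 and Sox10 were together in 18.2% beside 12.9%, with Sox10 in 33.3% of the cells with Trp63 and 12.0% of the others, while in gated puberty the order was opposite at 22.5% and 33.3%. Within the adult sets these shares were 28.6% against 12.2% in cells 48 to 188 and 54.5% against 11.1% in the others. These are 15 pairs at each stage described without a test.

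Sox9 and Sox10 were also described among the cells outside the gate by luminal markers. Cells were classed by whether they had more of 8 progenitor markers or more of 8 hormone-sensing markers, at least 2 of either. Sox10 was detected in 6 of the 13 pubertal cells with mostly progenitor markers (46.2%, 19.2 to 74.9%) and in 5 of the 74 with mostly hormone-sensing markers (6.76%, 2.23 to 15.1%). By level these classes averaged 116 CPM (98.4 to 136) and 28.0 CPM (24.3 to 32.0), but the cell at 1990 CPM was classed as hormone-sensing with 2 such markers, and without it that class averaged 1.10 CPM (0.47 to 2.16). In the adult 4 of 13 cells (30.8%, 9.09 to 61.4%) and 3 of 26 cells (11.5%, 2.45 to 30.2%) had Sox10, at 53.8 and 16.9 CPM. These intervals overlapped. The means were 91.4 and 0 CPM in cells 48 to 188 and 10.0 and 25.9 CPM in the other adult cells, but 1 cell at 610 CPM held most reads of the first and 1 cell at 420 CPM most reads of the last, so no order is read for the adult.

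Sox9 had the opposite order. In puberty it averaged 638 CPM (595 to 683) with a median of 110 CPM in the progenitor class and 1840 CPM (1809 to 1871) with a median of 1495 CPM in the hormone-sensing class. In the adult the means were 524 and 1311 CPM and the medians 100 and 310 CPM. The means were 370 and 461 CPM in cells 48 to 188 and 703 and 1761 CPM in the other adult cells. In puberty the high Sox9 outside the gate thus lay with hormone-sensing markers, while Sox10 was detected more often with progenitor markers. Of the hormone-sensing markers 8 of 8 were at -1 or less in gate over rest at both stages, against 23.1% and 27.1% of all genes, with 4 of 8 in cells 48 to 188 (22.4%) and 5 of 8 in the other adult cells (39.4%). Of the 8 progenitor markers 4 were there in puberty and 3 in the adult, with 1 at 1 or more at each stage, and 4 of the 7 compared were there in each adult set.

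**Figure D5:**
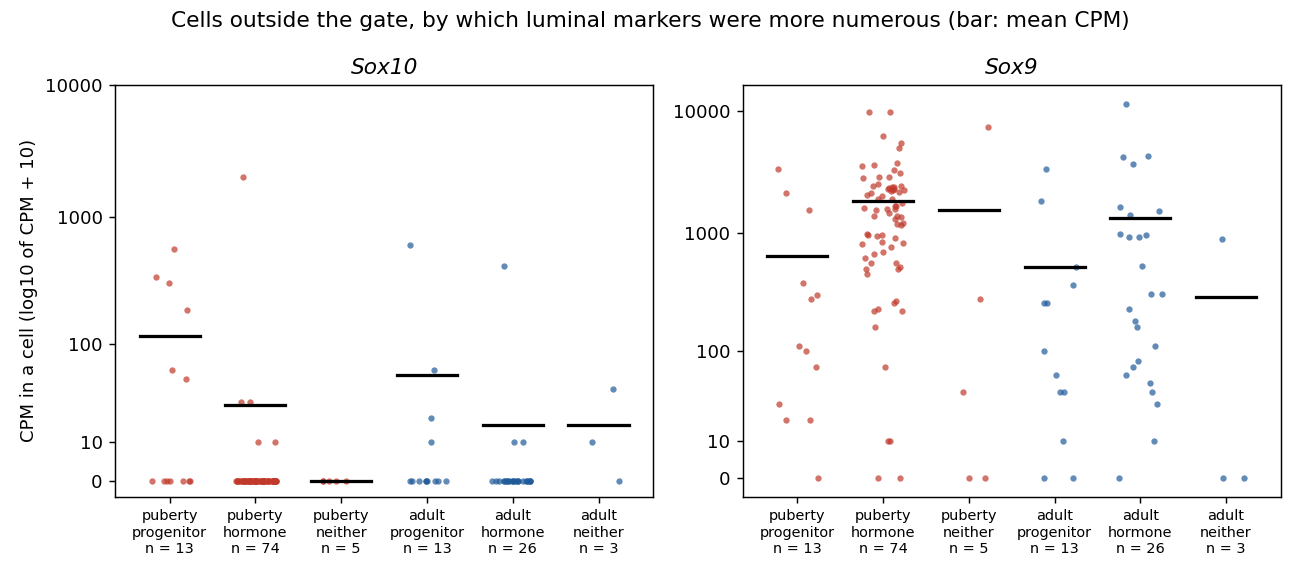
CPM of Sox10 (left) and Sox9 (right) in each cell outside the gate (vertical axes, log10 of CPM + 10; each point is 1 cell), by stage and by whether progenitor or hormone-sensing markers were more numerous or neither was, with a bar at the mean. The pubertal hormone-sensing bar for Sox10 is set by 1 cell at 1990 CPM, and Sox9 averages 1840 CPM in the same class against 638 CPM in the progenitor class.

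Outside the gate, 12 cells held Trp63, Snai2 or Id4. The 7 pubertal cells had 1 to 7 of the 12 basal markers. Of the 5 adult cells, the 3 from the set 48 to 188 had 6 to 9 basal markers and Acta2 at 88.4 to 91.4 CPM, just under the gate, and the other 2 had 7 and 8 of the 8 fibroblast markers with 3 basal markers. All 17 cells outside the gate in the set 48 to 188 had a median of 6 basal markers.

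The relatives of the factors were read in the same comparison of gate over rest. Trp53, the best known member of the p53 family, was higher in the gate by log2 ratios of 1.55 in puberty and 1.34 in the adult (0.17 in cells 48 to 188 and 3.67 in the others), and Trp73 averaged 1.00 CPM or less. Of the Snail, Zeb and Twist genes only 3 of 7 reached 5 CPM in the gate comparison, and of these Snai2 alone was at 1 or more at both stages. None was at -1 or less in puberty and 2 were in the adult. For puberty over adult within the gate, 3 of 3 compared were at 1 or more, Snai2 among them, against 29.4% of all genes. This held against each adult set too, where 32.2% and 47.1% of all genes were. Snai1 stayed at 3.73 CPM or less in gated cells, and Zeb1 and Zeb2 at 24.4 CPM or less. Of the 7 Id and E protein genes, 2 were at 1 or more and 1 at -1 or less in puberty, and 3 and 0 in the adult, where the sets differed, with 5 and 0 in cells 48 to 188 and 2 and 3 in the others. Id1, at 1.53 and 1.28, was higher in the gate like Id4, although the adult value joined 5.96 in cells 48 to 188 and -4.64 in the other adult cells. Id2 stood at 0.81 and 0.40, Id3 at -0.42 and -0.39 and the E protein gene Tcf12 at -0.95 and -0.24. Of the 15 Sox genes, 3 of 9 compared were at 1 or more and 3 at -1 or less in puberty, and 3 and 4 of 8 in the adult, with 4 and 1 of 7 in cells 48 to 188 and 1 and 5 of 9 in the others. For these families the shares of all genes at 1 or more and at -1 or less are 25.6% and 23.1% in puberty, 33.4% and 27.1% in the adult, 46.0% and 22.4% in cells 48 to 188 and 33.1% and 39.4% in the others. Sox4, the nearest relative of Sox11 among those named, stood at -0.78 in puberty and 1.26 in the adult, unlike Sox11 with 6.60 and at least 4.87.

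Genes tied to p63 and to Snail factors were read beside them. Of 18 keratin and adhesion genes linked to p63, 11 of the 17 compared were at a log2 ratio of gate over rest of 1 or more in puberty and 2 at -1 or less, with a median of 2.73, and 15 and 0 of 17 in the adult with a median of 2.20. Over all genes these shares were 25.6% and 23.1% in puberty and 33.4% and 27.1% in the adult. The adult count joins both sets, and in cells 48 to 188 46.0% of all genes were at 1 or more. The list holds Krt14, which chose the gate. Krt17, a keratin of basal cells, stood at 3.75 and 8.00, Perp, a desmosome gene, at 3.10 and 1.78, and Jag1, a Notch ligand, at 0.52 and 1.14. Between stages within the gate the same list was at 1 or more for 2 genes and at -1 or less for 6 of 17, with a median of -0.49, while Trp63 itself was at 1.23. Over all genes 29.4% were at 1 or more and 20.4% at -1 or less. Krt17 stood at -1.64, Perp at 0.51 and Jag1 at 0.60 there. Against each adult set 5 of 17 genes were at -1 or less, against 20.2% of all genes for cells 48 to 188 and 19.7% for the others.

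Of 12 epithelial genes that Snail factors are known to repress, 7 were at -1 or less in the gate in puberty and none at 1 or more, with a median of -1.46, and 5 of 11 against 1 in the adult, with a median of -0.52. The shares over all genes are 23.1% and 27.1% as above. The tight junction genes Cldn3 and Cldn4 stood at -1.59 and -2.03 in puberty and -0.30 and -1.72 in the adult. Epcam, the epithelial adhesion molecule, stood at -0.57 and -0.52, and Mal2, of apical transport, at -1.33 and 0.28. Between the stages within the gate the list had no common order. Of 12 genes 3 were at -1 or less against cells 48 to 188 and none at 1 or more, but 6 of 11 were at 1 or more against the other adult cells, where 47.1% of all genes were.

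The 10 luminal transcription factors listed lay mostly on the other side in puberty, with 7 at -1 or less and 1 at 1 or more, and stood at 5 and 1 in the adult. The shares of all genes were 23.1% and 25.6% in puberty and 27.1% and 33.4% in the adult. In the adult sets, 2 of 9 were at -1 or less and 2 at 1 or more in cells 48 to 188, no more than among all genes, with 22.4% and 46.0%, and 8 of 9 and 0 in the others, against 39.4% and 33.1%. Foxa1, a partner of the oestrogen receptor, stood at -1.12 and -2.99, Ehf at -2.10 and -0.27, Elf3 at -1.57 and -0.63 and Gata3, a luminal fate regulator, at -0.60 and -0.38. Gata3 was detected in 89.9% of gated pubertal and 93.6% of gated adult cells, so it was found in gated cells nearly as often as Sox9. Since many gated cells also had luminal markers, this is not read as a trait of basal cells.

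For each factor the genes with the most similar pattern were sought by Spearman's rho of thinned counts over all 323 cells and 7577 genes detected in at least 10% of them. Cells of both stages enter together, so a shared presence in the gate raises these values. Trp63 was closest to Acta2 (rho 0.50), Apoe (0.48), Col16a1 (0.48), 1600014C10Rik (0.47) and Krt5 (0.46). Snai2 was closest to Vcan, a matrix proteoglycan gene (0.51), 1600014C10Rik (0.48), Mdk (0.47), Ccnd2 (0.47) and Col4a1 (0.46). Id4 came nearest to Ecrg4 (0.45) and to the myoepithelial genes Myh11 (0.44), Lama3 (0.44), Acta2 (0.43) and Tagln (0.42). Sox11 was closest to Moxd1 (0.41), Tmem263 (0.39), Ctnnd2 (0.38), Sostdc1 (0.38) and Pdpn (0.38). Sox9 was nearest to AW112010 (0.55), Nck2 (0.52), Tlcd4 (0.50), Pdcd4 (0.48) and the hormone-sensing marker Cited1 (0.48). For Sox10 only the milk casein gene Csn3 reached 0.3, at 0.31.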

How the data were processed

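For each cell the authors deposited a table of raw counts, the read pairs assigned to each gene, before any filter. Per the study's methods, the authors aligned read pairs to mm10 with Subread and assigned them with featureCounts and a RefSeq annotation that comes with Rsubread, with versions and use of strand not given in the sources used here. The combined table was not used. Identifiers were matched to RefSeq of GRCm38.p6 (25275 of 27179). The unmatched ones, which held 1.84% of read pairs, 15 of the mitochondrion and 86 for ribosomal proteins were dropped, following the study. Cells passed at 100000 read pairs and 1500 genes, and each was thinned without replacement to 100000 read pairs (seed 1).

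With no animal in the labels, cells were not used as replicates and no test was made. Summed counts carry exact Poisson intervals, shares Clopper-Pearson intervals and log2 ratios exact conditional binomial intervals, with no prior, all at 95% and for counting error only, since amplified read pairs are not independent molecules. A group at 0 was put at 3 read pairs. A gene was compared at 5 CPM in either group and called at 2-fold (log2 of 1). Python 3.11.15, numpy 2.4.6, scipy 1.17.1, pandas 2.3.3, R 4.3.3 and edgeR 4.0.16 (TMM) were used, and thinning and ratios were tested on simulated data.

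The factors, the gene lists, the split of the adult cells and the rules below were chosen with earlier results of these data known. Named genes were the 6 factors, up to 4 genes of each list with the highest CPM per kilobase, up to 5 genes per factor by Spearman's rho at 0.3 or more, and the gate genes. Mbp was named after its values were seen. Some results on Schwann cell markers are not reported here. The alternatives were unthinned counts, a second seed, stricter coverage (200000 read pairs, 2500 genes), single cells or adult sets left out, other gates (50 CPM, 500 CPM, both genes), TMM scaling, a prior of 10 CPM, cells with 3 or more fibroblast markers left out, all genes in the totals, 5 read pairs for detection and other low filters. Leaving out the pubertal cell with the most Sox10 was chosen after seeing the data.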

Additional observations from a re-analysis of the deposited data

Results flagged for a closer look

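The factors also had read pairs in the cells that did not pass the coverage filter, which entered no comparison, and all of these sums but that of Sox11 in the adult lay above the limit of 3 read pairs. In the 50 such pubertal cells there were 49 read pairs of Trp63, 55 of Snai2, 18 of Id4, 17 of Sox10, 47 of Sox11 and 873 of Sox9, the last from 30 cells. In the 71 such adult cells there were 833 of Trp63, 235 of Snai2, 173 of Id4, 189 of Sox10 and 826 of Sox9, and Sox11 had 1. A single adult cell held 720 of the Trp63 read pairs and a single one 152 of those of Sox10.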

How the results depend on the processing

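No paired analysis was possible because the cell numbers in the labels tie no pubertal cell to an adult one and no result came from a test. Of the summary values recomputed, 65 stayed within 1.5 times or within the counting interval and 12 moved. The gated share in puberty was 30.4% with both gate genes required. In the adult it was 84.1% in cells 48 to 188, 44.4% in the other adult cells, 80.3% at 50 CPM, 63.2% at 500 CPM and 64.5% with both genes. Without thinning, 75.9% of gated pubertal and 67.3% of gated adult cells had 3 or more factors. Outside the gate these shares were 10.9% and 16.7%. In adult cells with mostly progenitor markers, Sox10 went from 53.8 to 91.4 CPM in cells 48 to 188 and 10.0 CPM in the others, and Sox9 from 524 to 370 and 703 CPM. The cause was not tested.

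The number of factors at a log2 ratio of 1 or more in the gate and the number above 0 between stages stayed within 1.5 times under each alternative. Ratios of single factors moved beyond their counting interval in 116 settings and stayed within it in 178, and none that was called changed sign. Requiring both gate genes left Trp63 at 1.36 in puberty and 2.67 in the adult and Snai2 at 2.29 in puberty, and the prior of 10 CPM left Id4 at 2.70 and 2.25. The sign of the Sox10 ratios turned in each comparison under 4 to 7 settings. Among these were TMM scaling for the stages in the gate and, for the pubertal gate ratio and for the stages over all cells, leaving out the pubertal cell with the most Sox10, a setting chosen after seeing the data. The sign of Id4 within the gate turned against the other adult cells, though not there with the highest cell of each group left out, at 0.40. The adult Sox9 gate ratio was -0.97 without the highest cells and -0.22 in cells 48 to 188, so that the 1 factor at -1 or less in the adult was not there under either.

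With 1 sample per stage, differences between animals, sorts and capture runs cannot be told apart from stage. The pubertal cell with the most Sox10, the adult cell with most Sox11 reads of the set 48 to 188 and the pubertal Trp63 cell outside the gate each decide a value given above. At 100000 read pairs a factor below 10 CPM in a cell was mostly not detectable.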
